A study of Mus musculus with 9 samples.

Results

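The immediate early genes described here are 10 transcripts of mouse colon: Fos, Fosb, Jun, Junb and Atf3, which encode AP-1 and ATF family transcription factors, the zinc finger factors Egr1 and Egr2, the orphan nuclear receptor Nr4a1, the nuclear protein Ier2, and Dusp1, a phosphatase that is not a transcription factor and belongs to the same early wave. They were chosen by gene name from the deposited count table, where all 10 of the 10 names were found among 21959 genes. RNA was measured by poly-A sequencing of whole colon in 9 libraries. The group Blank held 3 wild-type mice with no treatment. The group Model held 3 wild-type mice given dextran sulfate sodium (DSS), a polymer, usually given in drinking water, that damages the colon epithelium and causes colitis. The group CDs held 3 wild-type mice given DSS and carbon dots, carbon nanoparticles made here from lotus node charcoal, so that DSS is shared by Model and CDs. The series describes its replicates as biological. The sources used here give no dose, schedule, age, sex or time of collection.

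Immediate early genes are transcribed within minutes of a stimulus without new protein synthesis. The kinases ERK, JNK and p38 activate factors already bound at their promoters, chiefly serum response factor (SRF) with its ternary complex partners and the cyclic AMP response element binding protein CREB. The transcripts are short-lived. FOS and JUN proteins pair to form AP-1, EGR proteins bind GC-rich sites, and DUSP1 removes phosphate from p38, JNK and ERK. In the gut these genes respond to growth factors, cytokines and wounding, and they can also respond to tissue handling during dissection.

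Libraries held 13868864 to 19940300 reads assigned to genes. The limit of detection was 3 reads, which is 0.15 to 0.216 CPM (read counts scaled to library size) by library totals alone. All other CPM values were scaled after TMM, a correction for library composition. All 12 colon epithelial markers had reads in every group, with summed levels of 13248 to 30689 CPM. Some libraries also held transcripts of other organs. The 9 pancreatic acinar markers summed to 6766 CPM in Model 1, 57543 CPM in Model 3 and 246 CPM in CDs 1, against 3.66 to 19.2 CPM in the other libraries, and 4 of them (Pnlip, Cela3b, Cpa1 and Cela2a) were at 0 in all of Blank. The 4 prostate markers summed to 1531 CPM in Blank 2 and 173 CPM in Blank 3, against 0.957 to 2.57 CPM in the others. Calls that changed without these libraries are given with the values they then had.

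The promoters of 4 of the genes are shown because each holds a match to a CREB and ATF site or an EGR site and because the test treated their transcripts differently: Dusp1 and Nr4a1 rose with DSS, and Fos and Atf3 were not called. Fosb, which is not shown, also holds an EGR match and was not called. Junb and Egr2 rose and hold no match to these sites. A link between site and response was not tested. Each sequence is the 250 bases before the annotated start in the RefSeq table of GRCm38.p6, 5′ to 3′ on the gene's strand. Capitals mark the motif matches.
Dusp1: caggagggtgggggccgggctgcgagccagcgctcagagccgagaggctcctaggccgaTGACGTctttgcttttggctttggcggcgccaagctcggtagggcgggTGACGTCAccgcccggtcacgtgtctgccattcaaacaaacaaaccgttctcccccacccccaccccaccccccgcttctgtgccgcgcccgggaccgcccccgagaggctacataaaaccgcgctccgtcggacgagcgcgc
Nr4a1: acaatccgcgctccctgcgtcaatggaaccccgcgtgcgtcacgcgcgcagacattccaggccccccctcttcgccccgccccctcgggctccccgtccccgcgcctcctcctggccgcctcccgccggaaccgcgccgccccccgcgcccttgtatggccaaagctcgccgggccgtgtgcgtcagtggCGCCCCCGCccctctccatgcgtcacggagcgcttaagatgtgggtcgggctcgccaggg
Fos: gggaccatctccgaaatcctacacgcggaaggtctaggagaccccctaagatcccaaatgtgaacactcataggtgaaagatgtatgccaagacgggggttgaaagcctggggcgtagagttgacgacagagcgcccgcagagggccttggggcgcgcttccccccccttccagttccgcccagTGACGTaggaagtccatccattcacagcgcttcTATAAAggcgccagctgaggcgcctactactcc
Atf3: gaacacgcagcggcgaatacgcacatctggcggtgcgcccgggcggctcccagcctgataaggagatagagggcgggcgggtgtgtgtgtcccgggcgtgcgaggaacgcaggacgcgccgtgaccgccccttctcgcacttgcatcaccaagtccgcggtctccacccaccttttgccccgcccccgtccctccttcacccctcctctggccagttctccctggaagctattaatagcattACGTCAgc
They lie at chr17:26508473-26508722 on the minus strand for Dusp1, at chr15:101266596-101266845 on the plus strand for Nr4a1, at chr12:85473640-85473889 on the plus strand for Fos, and at chr1:191183334-191183583 on the minus strand for Atf3. The search window ran from 250 bases before to 50 bases after the start, on both strands, and 8 of the 10 genes had one, with no entry for Egr1 and Ier2. For Egr2, which had 5 entries, the most upstream was used.

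The cyclic AMP response element TGACGTCA, a CREB and ATF site, was found in 1 of the 8 windows, that of Dusp1, 143 to 136 bases before the start, and in 1.79% of 32851 promoter windows of the table. Its shorter core TGACGT, which overlaps the full element wherever that occurs, was found in 3 of 8: Fos (66 to 61 bases before the start), Atf3 (8 to 3, on the minus strand) and Dusp1 (191 to 186, and within the full element). It was found in 7.51% of all windows. The EGR site GCGNGGGCG was found in 2 of 8, Nr4a1 (60 to 52 bases before the start, on the minus strand) and Fosb (50 to 42), and in 5.55% of all windows. The TATA motif TATAAA was found in 2 of 8, Fos (33 to 28 bases before the start) and Junb (beginning at the annotated first base), and in 13.6% of all windows. The AP-1 site TGANTCA was found in 0 of 8 and in 7.81% of all windows, and the CArG box bound by SRF in 0 of 8 and in 1.63% of all windows. A match describes letters in these windows and not binding. Bases outside the windows were not searched, and Egr1 and Ier2 had no window. The counts of 0 of 8 therefore do not show that the 10 genes lack AP-1 or SRF sites.

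With DSS, 5 of the 10 genes rose and none was called lower. Junb, Egr1, Egr2, Dusp1 and Nr4a1 were 2.02-fold to 9.05-fold higher in Model than in Blank, whereas Fos, Fosb, Jun, Ier2 and Atf3 were not called. A gene is called where its adjusted p from edgeR's quasi-likelihood test, with Benjamini-Hochberg adjustment over the 14921 genes tested, is under 0.05. All 10 genes passed the filter on low counts and were tested. Among all genes tested, 44.1% were called in this comparison, 24.5% higher and 19.6% lower, and the 5 of 10 is read against that broad change. With Blank 2 and Blank 3 both left out, the single Blank library that remained was assumed to vary as the other groups do, and none of the 5 calls held. The log2 fold changes were then 0.94 for Junb (adjusted p = 0.0915), 1.52 for Egr1 (0.25), 3.42 for Egr2 (0.0612), 2.30 for Dusp1 (0.148) and 2.27 for Nr4a1 (0.134). The median log2 fold change was 0.49 over the 10 genes and -0.03 over all genes tested. In bulk colon, fewer cells of a type and less RNA per cell cannot be told apart.

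**Figure D1:**
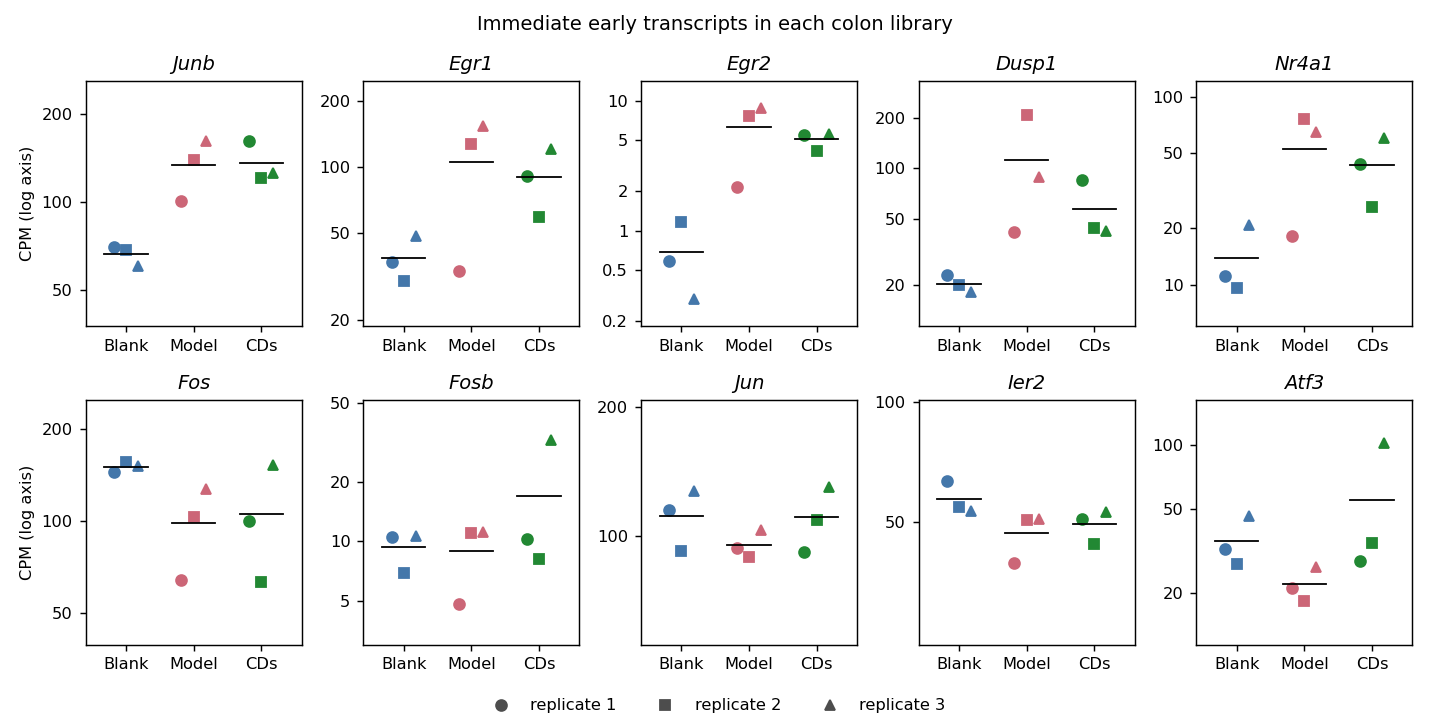
Level of each of the 10 transcripts (CPM, log axis) in the 3 Blank, 3 Model and 3 CDs libraries; each point is 1 library, with its replicate number shown by the marker, and the bar is the group mean. Egr2 sits at 0.295 to 1.17 CPM in Blank and at 2.18 to 8.85 CPM in Model, whereas Jun covers 92.2 to 127 CPM in Blank and 89 to 103 CPM in Model.

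Among the AP-1 genes, Junb was the member that rose. JUNB dimerises with FOS proteins. It had 70, 68.5 and 60.2 CPM in Blank 1, 2 and 3 and 101, 139 and 162 CPM in Model 1, 2 and 3. All Model libraries were above all Blank libraries. The log2 fold change was 1.02 ± 0.18 (SE), with an adjusted p of 0.00273 (edgeR). In the deposited table Junb (8:85701113-85705347, minus strand, build not named) overlaps Prdx2, a peroxiredoxin gene on the opposite strand, by 351 bases. Reads of overlapping genes could not be assigned by strand. Prdx2 moved the other way, with a log2 fold change of -0.43 ± 0.12 and an adjusted p of 0.0207 (edgeR).

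Fos (12:85520664-85524047, plus strand), the partner of the JUN proteins in AP-1 and the most abundant of the 10 in Blank, was not called. It had 144, 156 and 151 CPM in Blank and 64.1, 103 and 127 CPM in Model. The groups did not overlap, with Model lower, and the log2 fold change was -0.62 ± 0.32 with an adjusted p of 0.143 (edgeR). Its paralog Fosb (7:19036621-19043976, minus strand) had 10.5, 6.86 and 10.6 CPM in Blank and 4.79, 11 and 11.1 CPM in Model. These groups overlapped, and the 95% interval of the log2 fold change ran from -1.25 to 1.17.

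Jun (4:94937271-94940459, minus strand), the founding JUN gene, had 115, 92.2 and 127 CPM in Blank and 93.5, 89 and 103 CPM in Model. The groups overlapped, and the log2 fold change was -0.23 ± 0.15 (adjusted p = 0.251, edgeR). Atf3 (1:190902493-190950236, minus strand), a stress-induced ATF family factor, had 32.4, 27.4 and 46.2 CPM in Blank and 21.2, 18.3 and 26.5 CPM in Model. All Model libraries were below all Blank libraries, yet the test did not call the difference (-0.68 ± 0.45, adjusted p = 0.244, edgeR). Atf3 was called lower in 2 alternatives, without CDs 3 (-0.68, adjusted p = 0.0409) and with only the 6 libraries compared (-0.67, adjusted p = 0.0451).

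Both EGR zinc finger genes rose. Egr1, a factor induced by growth factors through ERK, had 36.7, 30 and 48.5 CPM in Blank and 33.6, 127 and 154 CPM in Model. The value of Model 1 lay inside the Blank range, so the groups overlapped. The log2 fold change was 1.45 ± 0.50 with an adjusted p of 0.0413 (edgeR). That call was lost when any 1 Blank library, Model 2 or Model 3 was left out (adjusted p 0.0658 to 0.145) and was made in 9 of 19 alternatives.

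Egr2 (10:67371305-67378018, plus strand), a relative of Egr1 with known roles in nerve myelination and in T cells, was the least abundant of the 10 in Blank. It had 0.579, 1.17 and 0.295 CPM in Blank, which is 9, 17 and 4 reads, and 2.18, 7.64 and 8.85 CPM in Model, which is 30, 161 and 132 reads. The groups did not overlap. Its log2 fold change of 3.18 ± 0.59 was the highest among the 10 genes, with an adjusted p of 0.00329 (edgeR). The low Blank counts limit the precision of that fold, whose 95% interval on the log2 scale ran from 1.84 to 4.51.

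Nr4a1 (15:101152150-101172676, plus strand), also called Nur77, encodes a nuclear receptor without a known natural ligand. It had 11.1, 9.67 and 20.7 CPM in Blank and 18.1, 75.6 and 65.2 CPM in Model. The value of Model 1 again lay inside the Blank range, and the other Model libraries were above it. The log2 fold change was 1.95 ± 0.54 with an adjusted p of 0.0191 (edgeR). The call was lost without Blank 1, Blank 2, Model 2 or Model 3, at adjusted p values of 0.065, 0.0693, 0.0644 and 0.0588.

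Dusp1, which ends the MAP kinase signal that induces it, had 23, 20.1 and 18.3 CPM in Blank and 41.9, 207 and 89.1 CPM in Model. All Model libraries were above all Blank libraries, and Model 2 was the highest. The log2 fold change was 2.46 ± 0.53 with an adjusted p of 0.00666 (edgeR), and 1.68 with an adjusted p of 0.0135 without Model 2. Dusp1 (17:26724564-26781102, minus strand) overlaps Ergic1, a gene of the early secretory pathway on the opposite strand, by 640 bases in the deposited table. Ergic1 moved the other way (-0.35 ± 0.09, adjusted p = 0.013, edgeR).

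Ier2 (8:85387960-85389483, minus strand), a nuclear protein gene induced by growth factors, had 63.4, 54.5 and 53.3 CPM in Blank and 39.4, 50.7 and 50.9 CPM in Model. All Model libraries were lower than all Blank libraries, by a log2 fold change of -0.28 ± 0.13 that was not called (adjusted p = 0.11, edgeR). With Fos and Atf3 it was among 3 genes that were lower in Model without overlap, and Junb, Egr2 and Dusp1 were higher without overlap. That makes 6 of 10 genes whose groups did not overlap, where 61.0% of all genes tested did not.

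**Figure D2:**
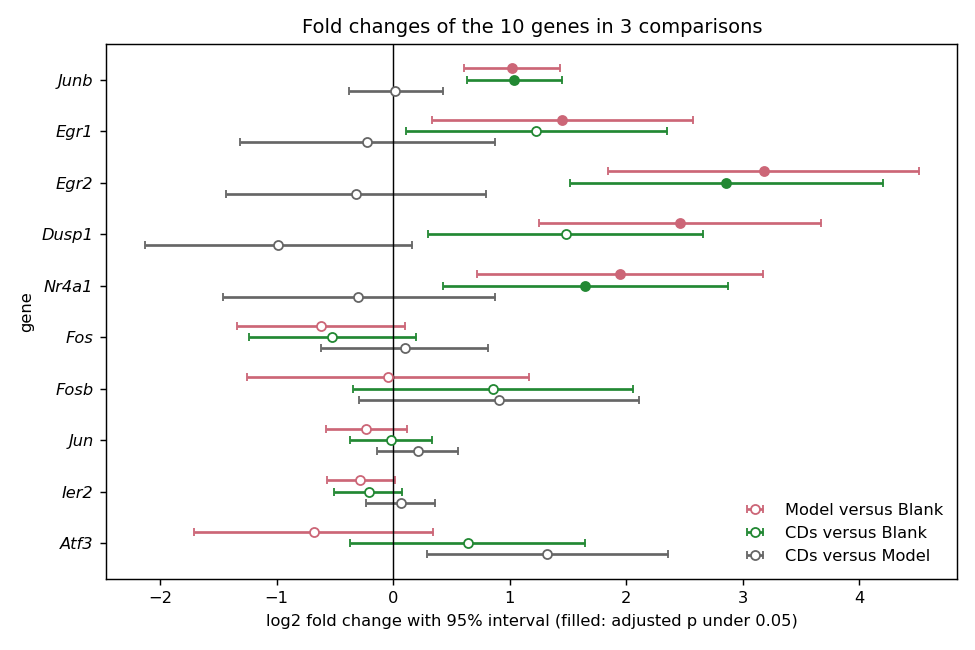
Log2 fold change of each of the 10 genes with its 95% interval in each of the 3 comparisons between groups; filled points have an adjusted p under 0.05 by edgeR's quasi-likelihood test. In Model versus Blank the 5 filled points run from 1.02 (Junb) to 3.18 (Egr2), and in CDs versus Model no point is filled.

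Levels of different genes were compared per length, as deposited FPKM (read counts divided by gene length and library total). In Blank the order by mean was Fos (62 FPKM), Ier2 (36.3), Jun (33.9), Junb (27.9), Atf3 (15.9), Egr1 (8.31), Dusp1 (5.99), Nr4a1 (3.82), Fosb (1.44) and Egr2 (0.193). Neighbours whose ranges overlapped were Ier2 with Jun, Jun with Junb, Egr1 with Dusp1 and Dusp1 with Nr4a1. In Model the order began with Junb (58.5 FPKM, range 43.3 to 68.5), Fos (42, range 27 to 52.6) and Dusp1 (34.9, range 12.5 to 66.1), and ended with Egr2 (1.85) and Fosb (1.45). The ranges of neighbours in that order overlapped, except for Atf3 (8.99 to 12) and Egr2 (0.635 to 2.54). In CDs it began with Junb (60.8 FPKM), Fos (45.4), Jun (35.1) and Ier2 (33.1), and only Nr4a1 and Fosb were neighbours whose ranges did not overlap. Fos, first in Blank, was thus second in Model and in CDs by mean.

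Ratios of FPKM between 2 genes of the same library do not depend on library scaling. The pairs were chosen after their values were seen, so no test is given. Junb to Jun was 0.656 to 1.03 in Blank, 1.49 to 2.18 in Model and 1.35 to 2.43 in CDs. Egr1 to Fos was 0.101 to 0.168 in Blank, 0.275 to 0.643 in Model and 0.415 to 0.49 in CDs. Nr4a1 to Fos was 0.0415 to 0.0915 in Blank, 0.189 to 0.491 in Model and 0.266 to 0.293 in CDs. Dusp1 to Fos was 0.0859 to 0.114 in Blank, 0.464 to 1.42 in Model and 0.196 to 0.608 in CDs. In these 4 ratios every library given DSS, Model 1 included, was above every Blank library. Those of Egr1, Nr4a1 and Dusp1 share Fos as denominator and are not independent of each other. In Model 1 Fos was at 27 FPKM, against 59 to 64.1 FPKM in Blank. Egr1 (7.43 FPKM) and Nr4a1 (5.1 FPKM) in Model 1 lay inside their Blank ranges, so their ratios there were higher with the lower Fos. Of the 2 other pairs computed, Fosb to Fos was 0.0165 to 0.0275 in Blank, 0.0282 to 0.0402 in Model and 0.0384 to 0.0807 in CDs. Atf3 to Jun went the other way in Model, with 0.417 to 0.538 in Blank and 0.305 to 0.382 in Model, and at 0.457 to 1.17 in CDs it overlapped Blank.

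**Figure D3:**
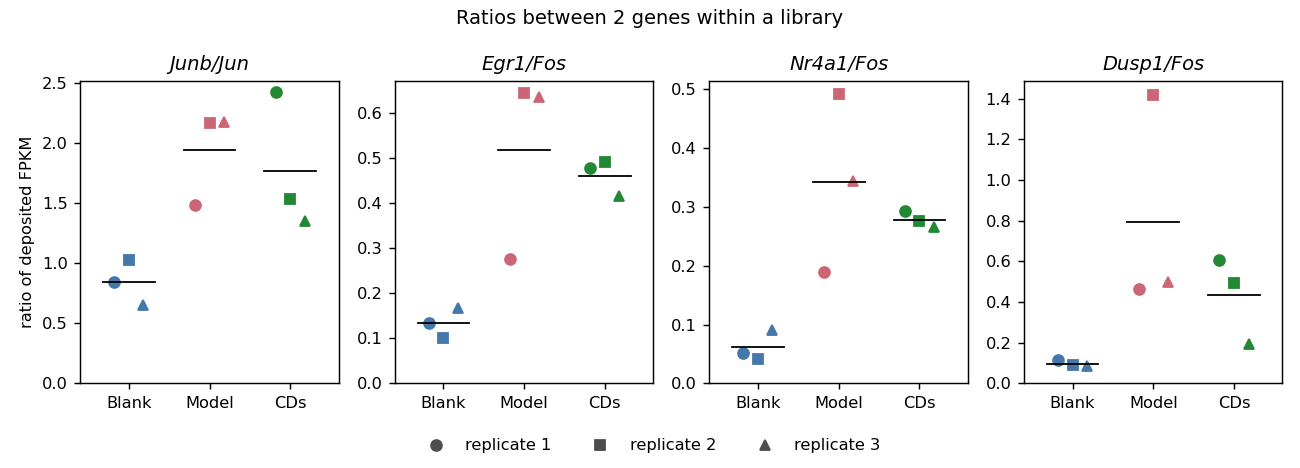
Ratio of deposited FPKM between pairs of genes within each library, by group; each point is 1 library and the bar is the group mean. Junb to Jun is at most 1.03 in Blank and at least 1.35 in the 6 libraries given DSS, and Egr1 to Fos is at most 0.168 in Blank and at least 0.275 in those 6.

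Between CDs and Model, none of the 10 genes was called. The background in this comparison was 0% of 14921 genes called by edgeR's quasi-likelihood test, with 788 genes at an unadjusted p under 0.05, 1 of the 10 among them (Atf3), and 39 genes called by DESeq2, none of the 10 among them. For 1 of the 10 genes, again Atf3, the groups were apart without overlap, against 7.99% of all genes tested. The median log2 fold change was 0.05 over the 10 genes and 0.02 over all genes tested.

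Atf3 had 28.3, 34.5 and 103 CPM in CDs 1, 2 and 3, against 21.2, 18.3 and 26.5 CPM in Model. Its log2 fold change was 1.32 ± 0.46, with an unadjusted p of 0.0175 and an adjusted p of 0.911 (edgeR). CDs 3 was far above the other CDs libraries, and without it the log2 fold change was 0.52. Fosb showed the same library: 10.2, 8.13 and 32.6 CPM in CDs, with a log2 fold change of 0.91 ± 0.53 that was 0.02 without CDs 3.

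Dusp1 had 85.3, 43.8 and 42 CPM in CDs, inside the Model range of 41.9 to 207 CPM. The log2 fold change was -0.99 ± 0.51 (adjusted p = 0.936, edgeR; 95% interval -2.13 to 0.16) and -0.20 without Model 2. When the 3 libraries with pancreatic transcripts (Model 1, Model 3 and CDs 1) were all left out, the single Model library left was Model 2, the highest for Dusp1, and the value was -2.27 with an adjusted p of 8.20e-04. That fit assumes that the lone Model library varies as the other groups do.

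The other genes that rose with DSS stood near their Model levels by mean. Junb had 161, 121 and 126 CPM in CDs, and its log2 fold change from Model was 0.02 with a 95% interval of -0.38 to 0.43. Egr1 had 90.7, 58.7 and 121 CPM, with an interval of -1.31 to 0.87. Egr2 had 5.44, 4.13 and 5.51 CPM, with an interval of -1.43 to 0.80. These CDs values lay inside the Model range for Egr1 and Egr2, and for Junb all 3 did as well.

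Nr4a1 had 43.6, 25.8 and 60.4 CPM in CDs, all inside the Model range of 18.1 to 75.6 CPM, with an interval of -1.46 to 0.87. Among the genes not called with DSS, Fos had 99.7, 62.9 and 152 CPM, Jun 91.7, 109 and 130 CPM and Ier2 51, 44 and 52.9 CPM. Each of the 3 overlapped Model. The intervals of the log2 difference were -0.62 to 0.81 for Fos, -0.14 to 0.56 for Jun and -0.23 to 0.36 for Ier2. On the log2 scale a 2-fold change is a difference of 1. The intervals of Junb, Jun, Ier2 and Fos left out such a change in both directions. Those of Egr1, Egr2, Dusp1 and Nr4a1 held a 2-fold lower level. Those of Fosb (-0.29 to 2.11) and Atf3 (0.29 to 2.36) held a 2-fold higher level. The intervals are not adjusted for the number of genes tested.

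Against Blank, the CDs group had 3 of the 10 genes called, all higher: Junb (1.04 ± 0.18, adjusted p = 0.00322), Egr2 (2.86 ± 0.59, adjusted p = 0.00671) and Nr4a1 (1.65 ± 0.54, adjusted p = 0.0411), by edgeR. The background was 35.6% of all genes tested, 21.8% higher. All 3 CDs libraries were above all Blank libraries for each of these genes and also for Egr1 and Dusp1. Egr1 (1.23 ± 0.49, adjusted p = 0.081) and Dusp1 (1.48 ± 0.52, adjusted p = 0.0539) missed the threshold in edgeR and passed it in DESeq2, at adjusted p values of 0.0343 and 0.0118. Both were also called by edgeR without Model 1, and without Model 1, Model 3 and CDs 1 (adjusted p = 0.0161 for Egr1 and 4.62e-04 for Dusp1). Without Blank 2 and Blank 3 no call held, and the values were 0.96 for Junb (adjusted p = 0.11), 3.10 for Egr2 (0.0958) and 1.96 for Nr4a1 (0.206).

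The Nr4a1 call was lost without Blank 1, Blank 2, Model 3, CDs 1 or CDs 3 (adjusted p 0.0566 to 0.129). Ier2 was lower in CDs than in Blank without overlap but not called (-0.21 ± 0.13, adjusted p = 0.229, edgeR). In all, 6 of the 10 genes did not overlap between CDs and Blank, against 54.1% of all genes tested. Model and CDs were compared with the same 3 Blank libraries, so these values are not independent of those for Model.

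Several of these genes varied widely between the libraries of a group. The SD of log2 CPM in Model was 1.19 for Egr1, 1.15 for Dusp1, 1.13 for Nr4a1 and 1.08 for Egr2, where the median gene had 0.20. It was 0.10 for Jun and 0.21 for Ier2. In CDs it was highest for Fosb (1.07), with Atf3 next, where the median gene had 0.23. In Blank, Fos varied little (0.06) and Nr4a1 more (0.58), with a median gene of 0.15.

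Within Model, Model 1 was the lowest library for 8 of the 10 genes, all but Jun and Atf3, where 37.3% of all genes tested had their lowest value in it. Model 3 was the highest for 8 of 10, against 24.3% of all genes. Within CDs, CDs 3 was the highest for 8 of 10, all but Junb and Dusp1, against 30.8% of all genes, and CDs 2 was the lowest for 7 of 10, against 27.3%. In Blank no library held more than 5 of the highest or lowest values. The 10 genes were read from the same libraries, so they are not independent observations.

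**Figure D4:**
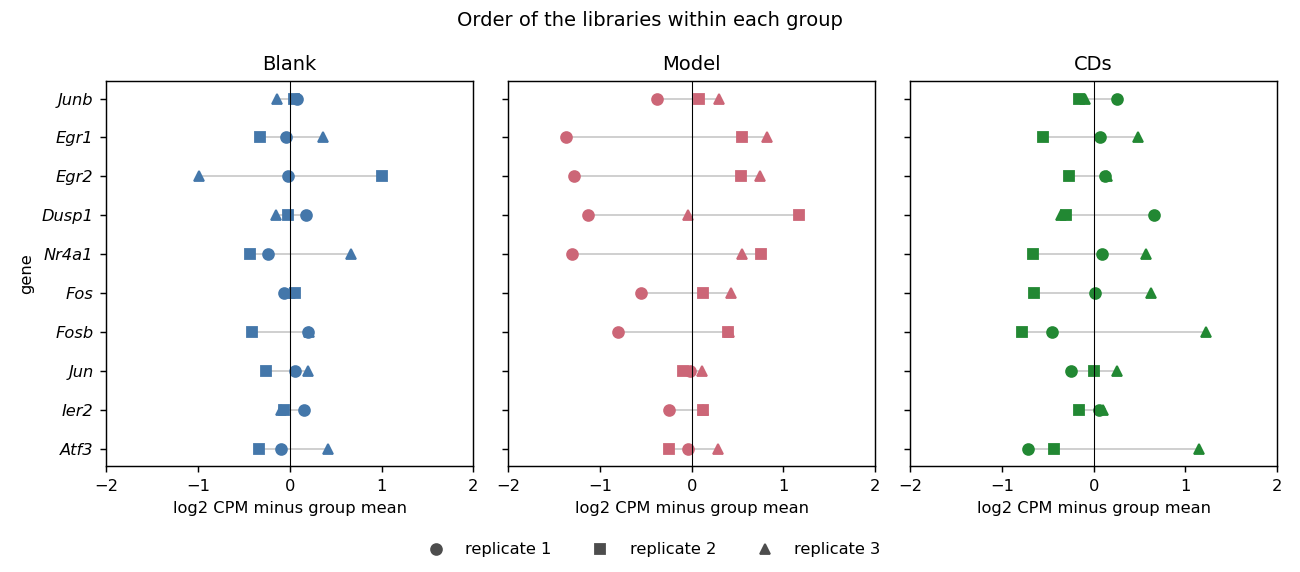
Log2 CPM of each of the 10 genes minus its group mean, by group; each point is 1 library, with its replicate number shown by the marker. Model 1 is the lowest library for 8 of 10 genes in Model, and CDs 3 is the highest for 8 of 10 in CDs.

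Markers of cell types also differed between the libraries of a group, in an order that matched the 10 genes only in part. Model 1, lowest for most of the genes, had summed epithelial markers of 26121 CPM, against 13601 CPM in Model 2 and 15295 CPM in Model 3, and 21694 to 30689 CPM in Blank. The 6 fibroblast markers summed to 5062 CPM in Model 1, 11381 CPM in Model 2 and 8600 CPM in Model 3, against 1759 to 2024 CPM in Blank and 5401 to 6256 CPM in CDs. The 6 neutrophil markers summed to 393, 2372 and 571 CPM in Model 1, 2 and 3, and to 75 to 92.7 CPM in Blank. All members of the fibroblast and neutrophil lists had reads in every group. Model 2, highest for Dusp1 and Nr4a1, was also highest for both lists. Model 3, highest for the other 8 genes, was highest for neither of them. It was highest for the 5 endothelial markers (383, 497 and 510 CPM in Model 1, 2 and 3). The same held for the 7 T and B cell markers (111, 147 and 165 CPM). Model 2 was highest for the 6 macrophage (603, 920 and 790 CPM) and 4 mesothelial markers (16.3, 42.8 and 11.1 CPM). Model 1 was highest for the 7 smooth muscle markers (3945, 2623 and 2828 CPM). The part of these cell types in the results on the 10 genes was not tested.

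CDs 3, high for Fosb and Atf3, did not have the highest fibroblast or neutrophil sum of its group (5401 and 554 CPM). It had 27034 CPM of epithelial markers, the highest in CDs, and 51.3 CPM of the 4 mesothelial markers, against 27.1 CPM in CDs 1 and 43.2 CPM in CDs 2. Immediate early transcripts also respond to dissection, and the labels give no times of handling. The 13 heat shock and stress genes summed to 3318 to 3498 CPM in Blank, 3143 to 3177 CPM in Model and 2726 to 3674 CPM in CDs. CDs 3 was at the low end. The abundant genes Hsp90ab1 (mean 1351 CPM in Blank) and Hspa8 (996 CPM) dominate that sum, so it says little on the others. Within CDs, CDs 3 was lowest for Hsph1 (43.1 CPM) and Dnaja1 (166 CPM) and highest for Dnajb4 (55.9 CPM). For Hspa1a (5 CPM) it lay between CDs 1 (3.71 CPM) and CDs 2 (5.38 CPM). Of these 13, 7 were called higher in Model than in Blank and 1 lower, where 24.5% of all genes tested were higher and 19.6% lower. Among them were Hsph1 (0.86 ± 0.17), Dnaja1 (0.47 ± 0.11) and Hspa1a (1.05 ± 0.26), all chaperone genes. The abundant chaperone gene Hsp90ab1 was the 1 called lower (-0.60 ± 0.16). The part of handling in the results was not tested.

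Relatives of the 10 genes and other genes of the same pathway were counted in lists, to be read beside the 24.5% of all genes tested that were called higher and the 19.6% called lower in Model, and their median log2 fold change of -0.03. Of 12 other AP-1 and ATF family genes, 7 rose in Model and none fell, with a median log2 fold change of 0.29. Batf, an AP-1 factor of lymphocytes and myeloid cells, had 1.61, 1.03 and 0.738 CPM in Blank and 5.3, 7.64 and 6.3 CPM in Model (2.50 ± 0.35, adjusted p = 9.37e-04, edgeR). Jdp2, a repressor of AP-1, had 4.25 to 4.76 CPM in Blank and 16.8 to 36.2 CPM in Model (2.37 ± 0.31). Batf3 also rose (1.69 ± 0.27). Jund, the JUN gene that is usually expressed at rest, had 28.3 to 32.5 CPM in Blank and 19.1 to 23.1 CPM in Model. It was not called by edgeR (adjusted p = 0.0554) and was called lower by DESeq2 (adjusted p = 0.0381).

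Of 6 other EGR and NR4A family genes 5 were tested and 4 rose, with a median of 1.27, where 24.5% of all genes rose. Both relatives of Nr4a1 were among them. Nr4a2 had 6.24, 4.6 and 7.67 CPM in Blank, 17.4, 48.3 and 43.2 CPM in Model and 15.5, 10.6 and 12.6 CPM in CDs. It rose with DSS by 2.56 ± 0.38 on the log2 scale (adjusted p = 0.00117, edgeR), and all CDs libraries were below all Model libraries (-1.49 ± 0.36), without being called by edgeR (unadjusted p = 0.00249, adjusted p = 0.891). DESeq2 called Nr4a2 lower in CDs, with an adjusted p of 0.0283. Nr4a3 rose by 2.21 ± 0.41 and its log2 difference between CDs and Model was 0.02 ± 0.37. Nab2, a corepressor of EGR proteins, rose as well (1.27 ± 0.24). Egr3 had 1.7 to 3.02 CPM in Blank and 2.76 to 6.93 CPM in Model. It was not called by edgeR (adjusted p = 0.0573) and was called higher by DESeq2 (adjusted p = 0.025).

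Of 11 other IER and DUSP family genes 4 rose and 1 fell, with a median of 0.41, beside 24.5% and 19.6% of all genes. Ier3, a survival gene of the early response, had 10.8 to 13.8 CPM in Blank and 37.5, 73.3 and 81.9 CPM in Model (2.41 ± 0.34). Ier5l rose by 2.09 ± 0.31 and Dusp5, a nuclear phosphatase of ERK, by 1.05 ± 0.14. Dusp2 was the fourth (2.63 ± 0.50), and Dusp16, a phosphatase of JNK, was the gene that fell (-0.34 ± 0.08). Dusp6, the cytoplasmic ERK phosphatase, was not called in Model (0.39 ± 0.21).

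Of 26 other primary response genes 16 rose and 1 fell, with a median of 0.85, where 24.5% of all genes tested rose. Gem, a small GTP-binding protein gene, had 7.89 to 9.81 CPM in Blank and 103 to 123 CPM in Model (3.70 ± 0.21, adjusted p = 1.39e-04, edgeR). Nfil3, a basic leucine zipper repressor, rose by 3.05 ± 0.32, and the clock gene Per1 by 2.11 ± 0.26. Klf4, a factor of differentiated epithelium, was the gene that fell (-1.18 ± 0.38). Per1 and Tsc22d3, both targets of glucocorticoids, had the smallest p of this list between CDs and Model (-0.87 ± 0.25 and -0.97 ± 0.28), and neither was called (adjusted p = 0.891 for both, edgeR).

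Of 19 ERK, JNK and p38 pathway kinase genes 5 rose and 3 fell, with a median of -0.03, which is near the background of 24.5% higher and 19.6% lower. Mapk11 (p38 beta) rose by 1.83 ± 0.37 and Mapk10 (JNK3) by 1.32 ± 0.22, both from 2.12 to 3.39 CPM in Blank. Map2k6, a kinase that activates p38, fell by 1.38 on the log2 scale, from 18.8 to 22.1 CPM in Blank to 6.98 to 9.08 CPM in Model. Of 12 SRF, TCF and CREB regulator genes 6 rose and 1 fell, beside the same 24.5% and 19.6%. Srf itself had 33.3 to 39.7 CPM in Blank and 35.6 to 38.3 CPM in Model (0.00 ± 0.09). Its ternary complex partner Elk3 (1.52 ± 0.18) and the cyclic AMP responsive factor Crem (1.45 ± 0.26) were higher, as was Mef2a (0.45 ± 0.11).

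Of 7 ERK feedback inhibitor genes 4 rose and 1 fell, with a median of 0.64, where 24.5% of all genes rose and 19.6% fell. They were led by Spred3 (1.99 ± 0.29), Spry4 (1.61 ± 0.23) and Spred1 (0.64 ± 0.12), and Spred2 fell (-0.45 ± 0.12). Between CDs and Model, edgeR called none of the genes of these 8 lists, and DESeq2 called only Nr4a2 among them. The median log2 fold change there was -0.46 over the 7 ERK feedback inhibitor genes (range -0.60 to 0.01). It was 0.02 over all genes tested and between -0.06 and 0.09 in the other lists. Spry1 (-0.46 ± 0.20) and Errfi1 (-0.60 ± 0.28) had the smallest p of the feedback list (adjusted p = 0.936 for both, edgeR). Between CDs and Blank, 7 of 12 AP-1 and ATF relatives, 3 of 5 EGR and NR4A relatives, 6 of 11 IER and DUSP relatives and 11 of 26 other primary response genes were called higher. The share called higher among all genes tested was 21.8%.

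**Figure D5:**
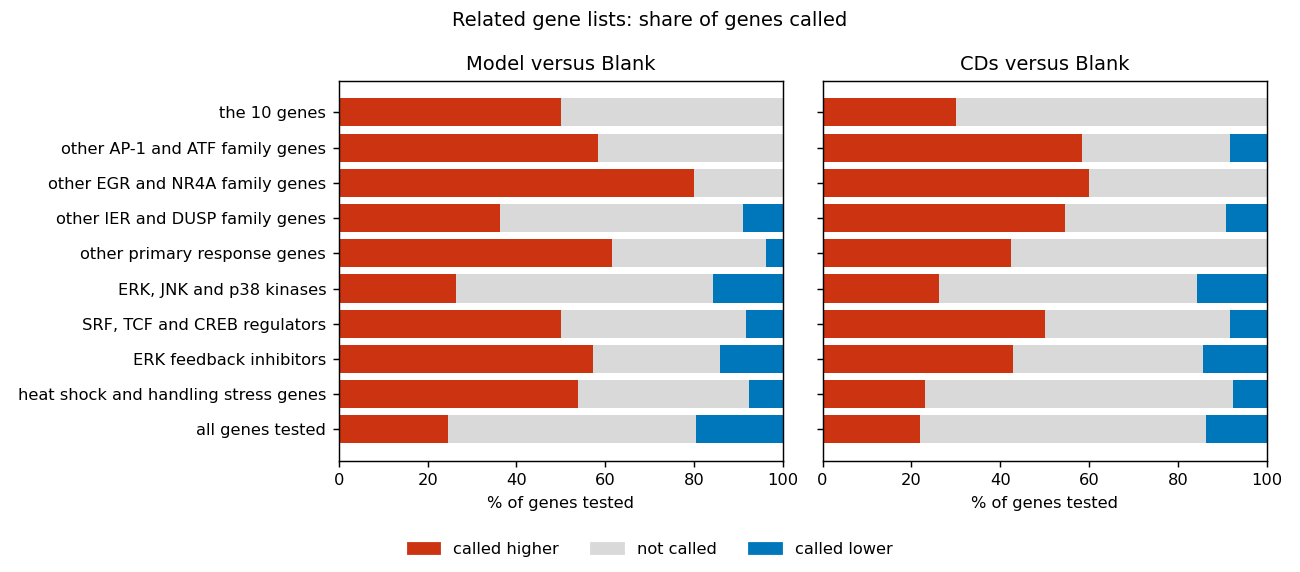
Share of the tested genes of each list that were called higher or lower in Model versus Blank and in CDs versus Blank (x axis, percent), beside the share among all genes tested. In Model versus Blank 16 of 26 other primary response genes and 5 of the 10 genes described here were called higher, where 24.5% of all genes tested were.

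The genes most like the 10 in pattern were ranked by Pearson's r between their log2 CPM and the mean z-score of the 10, among 12024 other genes with a mean of at least 5 CPM. Over the 9 libraries, which share 3 groups, the first 5 were Tcn2 (r = 0.853), Ccn1 (0.839), Lxn (0.826), Hipk1 (0.815) and Klhdc3 (0.810). After subtracting each group's mean they were Ccn1 (0.970), Ggps1 (0.966), Poll (0.945), Efcab2 (0.916) and Ldlrad4 (0.915). Ccn1, also called Cyr61, a matricellular protein gene and itself an immediate early gene, was on both. It had 12.9, 12.1 and 11.1 CPM in Blank, 10.7, 43.2 and 41 CPM in Model and 18.6, 13.5 and 30.7 CPM in CDs, so that Model 1 was again the lowest Model library and CDs 3 the highest CDs library. With 9 points and many genes ranked, these values describe the libraries.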

How the data were processed

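Colon RNA of 9 mice was sequenced after poly-A capture. The submitters' processing notes name HTSeq 0.9.1, HISAT2 2.1.0 and fastp 0.22.0. Genome build and strand setting are not given in the sources used. Per the file headers, the authors deposited, for every library, the read count and the FPKM of each gene. FPKM equalled count per gene length per library total in 100% of values (relative tolerance 1e-06). Counts were tested with edgeR 4.0.16 in R 4.3.3 (quasi-likelihood F test, 1 fit of 9 libraries with 1 coefficient per group, edgeR's expression filter, TMM scaling). Two-sided p-values were adjusted over the 14921 genes tested (Benjamini-Hochberg, threshold 0.05). SE is the absolute log2 fold change over the square root of F. CPM is the count scaled to TMM-adjusted library size. The script was tested on simulated data.

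The 10 genes and all lists were chosen with earlier results of these data known. Named genes were the 10 and, from each list, those with the smallest p (3 from Model versus Blank, 2 from CDs versus Model). Mapk13 and Elk4, also picked by that rule from CDs versus Model, were not called there and are not described above. Dusp16, Klf4, Hsp90ab1, Hspa8, Spred2, Prdx2 and Ergic1 were named after their values were seen. The nearest genes by correlation used a prior count of 2. Libraries of a group differed by a chi-square of 16.7 to 173 per gene, so none was a repeat. The alternatives were a replicate block, a fit without the group not compared, single libraries left out, the libraries with transcripts of other organs left out, other size factors, no filter, DESeq2 1.42.0 and limma 3.58.1 on log2 FPKM with a pseudocount of 1 or 0.1. The limit of 3 reads covers counting error only, and the intervals of fold changes come from the fit over libraries.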

Additional observations from a re-analysis of the deposited data

How the results depend on the processing

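Leaving out each library in turn, the number of the 10 genes called ranged from 3 to 6 in Model versus Blank (all genes 4405 to 7459), from 2 to 5 in CDs versus Blank (3398 to 5540) and stayed at 0 in CDs versus Model (0 to 0). It was 3 in Model versus Blank without Blank 1, Blank 2, Model 2 or Model 3. Junb, Egr2 and Dusp1 were called in 18 of 19 alternatives, and the exception left out both libraries with prostate transcripts (Blank 2 and Blank 3): then 0 of 10 genes and 1536 of all genes were called in Model versus Blank, and 0 and 465 in CDs versus Blank, with 1 Blank library left and assumed to vary as the others. Without Model 1, Model 3 and CDs 1, with 1 Model library left, 1 of the 10 (Dusp1) and 1241 genes were called in CDs versus Model, and 5 of the 10 in CDs versus Blank. DESeq2 called 39 genes in CDs versus Model and 5 of the 10 in CDs versus Blank, and a fit of only the 6 libraries compared also called 5 there. Signs turned only for differences that were not called. In Model versus Blank, Fosb was 0.24 without Model 1, Model 3 and CDs 1, 0.01 with library totals and -0.22 to 0.25 leaving out a library. In CDs versus Model, Junb was -0.17 and Ier2 -0.06 without those 3 libraries, Junb -0.01 with DESeq2 and with the RLE size factors of edgeR, and Egr1 0.01 with limma (pseudocount 0.1). Leaving out a library there gave -0.27 to 0.36 for Fos, -0.15 to 0.18 for Junb, -0.64 to 0.16 for Egr1, -0.71 to 0.01 for Egr2, -0.04 to 0.14 for Ier2 and -0.70 to 0.05 for Nr4a1. In CDs versus Blank, Jun was 0.10 without those 3 libraries, 0.05 with library totals, 0.06 with limma at either pseudocount and -0.14 to 0.10 leaving out a library, Fosb -0.01 to 1.20 and Atf3 -0.16 to 0.95. The causes were not tested. Same-numbered libraries correlated in their deviations from group means at -0.37 to 0.21, and differently numbered ones at -0.35 to 0.47. The labels name no pairing, and with 3 libraries a group these correlations cannot decide whether the numbers pair the mice. The fit with the replicate number as a block called 4 of the 10 and 5672 genes in Model versus Blank (Egr1 was lost, adjusted p = 0.0565), 0 and 0 in CDs versus Model, and 3 and 4475 in CDs versus Blank. Each group held 3 libraries, and whether their number or the reads per gene limits these comparisons was not tested. Egr2, the least abundant of the 10 in Blank, had 4 to 17 reads there.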
